A study of Homo sapiens with 9 samples.

Results

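The BCL2 family decides whether a cell keeps its mitochondrial outer membrane intact, and 10 of its genes were followed in HMEC-1 cells exposed to trimethylamine N-oxide (TMAO). HMEC-1 is an established line of human dermal microvascular endothelial cells, and TMAO is a metabolite that the liver makes from trimethylamine released by gut bacteria. The 10 genes were taken by symbol from the 29740 genes of the count table: the anti-apoptotic members BCL2, BCL2L1, BCL2L2, MCL1 and BCL2A1, and the pro-apoptotic members BCL2L11, BID, BIK, BAK1 and BMF. Known p53 targets of the family, such as BAX, BBC3 and PMAIP1, are described only as neighbours. Of the 10, 9 had enough reads to be tested (4 of 5 anti-apoptotic and 5 of 5 pro-apoptotic), among 14740 tested genes in all. BCL2A1 was left out by the filter on low counts.

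RNA was sequenced from untreated cells (CTRL), from cells given 50 µM TMAO for 24H and from cells given 50 µM TMAO for 48H, with 3 libraries per group. The treated cells were kept in low-serum medium. The medium of the controls is not stated, so whether serum differed between CTRL and treated cells is not known. The controls carry no time label, and per the study's text untreated cells of both time-points were pooled for sequencing. A difference from CTRL at either time-point therefore cannot be told apart from an effect of the time in culture. The same holds for differences between 48H and 24H, since no controls are separated by time. All libraries come from 1 cell line, and the labels do not say whether the 3 libraries of a group are separate cultures, so the p-values measure only the spread between these libraries.

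Anti-apoptotic members bind and hold their pro-apoptotic relatives. BAK1, like BAX, is an effector that forms pores in the outer membrane once released. BCL2L11 (BIM), BID, BIK and BMF are BH3-only proteins, sensors that carry a stress signal to the guardians or the effectors. BMF is known for its response to loss of attachment to the matrix and is held in place by a dynein light chain, BID is activated through cleavage by caspase-8, and MCL1 is a short-lived guardian controlled to a large degree by protein turnover. Gene-level RNA counts do not show cleavage, binding or turnover of these proteins, nor which splice form of BCL2L1 (the long, protective one or the short one) or of BCL2L11 was made.

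Total counts ranged from 25205756 to 36927373 per library. In TMAO 24H replicate 1, 6 ribosomal RNA genes took 31.5% of the counts, against 1.64% to 7.46% in the other 8 libraries. All 10 endothelial markers examined (PECAM1, CDH5 and VWF among them) were expressed in every library. Their summed level was 2063 to 2371 CPM (counts scaled to library size, with sizes corrected by the TMM method) in CTRL, 2101 to 2219 at 24H and 1859 to 2026 at 48H, and 5 of the 10 (PECAM1, CDH5, KDR, TIE1 and ERG) were lower at 48H than in CTRL by the edgeR test described with the first comparison, where 5.29% of all tested genes were lower. Of the other 5 endothelial markers, VWF, ESAM and EMCN had log2 differences of 0.091, 0.15 and 0.0050 at 48H. TEK and CLDN5 had -0.14 and -0.15, and none of these 5 passed. The 6 fibroblast and mural markers summed to 700 to 801 CPM in CTRL, 696 to 747 at 24H and 476 to 521 at 48H, with COL1A1 lower at 48H and LUM and DCN at 0 in some libraries. The 5 epithelial markers (EPCAM, CDH1, KRT5, KRT14, KRT19) summed to 13.5 CPM in TMAO 48H replicate 3 and to 62.8 to 105 CPM in the other 8 libraries. Of 6 leukocyte markers, 5 were at 0 in some library and the 6 summed to 1.18 to 1.71 CPM. TMAO 24H replicate 1 and TMAO 48H replicate 3 thus stood apart. Where leaving out either ended the call of a gene, the value without it is given beside the result. Within CTRL, replicate 3 had the most ribosomal RNA (7.46%, against 1.89% and 1.64% in replicates 1 and 2). It also had the lowest endothelial sum (2063 CPM) and the highest epithelial sum (105 CPM) of the controls.

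The 3 members that passed the test at 48H were BMF, BCL2L1 and BAK1. The 250 bases before a RefSeq start site of each (build GRCh38.p14, all on the minus strand, written 5′ to 3′ along the gene) are shown because these genes passed. Which start the cells used was not measured. Capitals mark a GC box (GGGCGG on either strand), the core letters bound by SP1. The windows are chr15:40108880-40109129 for BMF, chr20:31723964-31724213 for BCL2L1 and chr6:33580277-33580526 for BAK1.
BMF: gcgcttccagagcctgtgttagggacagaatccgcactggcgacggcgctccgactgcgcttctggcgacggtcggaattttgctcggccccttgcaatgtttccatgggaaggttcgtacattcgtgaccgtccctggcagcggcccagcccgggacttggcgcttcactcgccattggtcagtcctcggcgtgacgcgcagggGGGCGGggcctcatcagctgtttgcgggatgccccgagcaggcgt
BCL2L1: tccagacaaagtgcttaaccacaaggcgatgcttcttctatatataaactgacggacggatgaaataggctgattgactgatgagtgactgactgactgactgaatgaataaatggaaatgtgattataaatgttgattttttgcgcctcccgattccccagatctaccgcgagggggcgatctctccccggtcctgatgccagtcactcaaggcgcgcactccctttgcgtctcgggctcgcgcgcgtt
BAK1: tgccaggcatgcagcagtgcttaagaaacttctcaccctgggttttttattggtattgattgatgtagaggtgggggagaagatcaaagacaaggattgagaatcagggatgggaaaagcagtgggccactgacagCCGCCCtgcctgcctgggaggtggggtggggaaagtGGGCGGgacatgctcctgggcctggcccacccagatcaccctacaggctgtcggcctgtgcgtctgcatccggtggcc
RefSeq lists a second start for BMF and for BCL2L1, whose windows are not printed and held none of the motifs searched. The BMF window shown held 1 GC box, 45 bases before the start, and the BAK1 window held 2, at 78 and 114 bases. The BCL2L1 window held none. GC boxes were found in 42.6% of 35116 promoter windows of the same length, so the match in BMF and BAK1 is a common feature. None of the 3 windows matched the letters searched on both strands for 5 other motifs. These were 1 form of the NF-kB site (GGG, any 2 bases, then TTTCC, in 1.73% of all windows), FOXO (GTAAACA, 2.98%), AP-1 (TGANTCA, 6.57%), the interferon response element (3.02%) and the antioxidant response element (TGACNNNGC, 10.9%). Broader forms of the NF-kB site were not searched, so whether these windows hold one was not tested. Among the 7 members with a RefSeq promoter entry, the others with one of those 5 motifs were BCL2L11, with FOXO letters 223 bases before its start, and BCL2A1, with interferon response element letters 133 bases before its start. MCL1, BCL2L2 and BIK had no entry.

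Levels between genes were compared as CPM per kilobase of the median transcript length in GENCODE release 29. MCL1 was the most abundant member in CTRL, with 189 ± 5.37 CPM per kilobase (SD, n = 3), followed by BCL2L1 with 105 ± 1.42 and BCL2L2 with 104 ± 3.70. The values of BCL2L1 and BCL2L2 overlapped in CTRL and at 24H, so their order was not resolved there, while at 48H all 3 BCL2L1 libraries lay above all 3 of BCL2L2. The pro-apoptotic members followed, with BMF at 49.3 ± 1.95, BCL2L11 at 39.5 ± 2.59, BID at 24.6 ± 0.207 and BAK1 at 17.5 ± 0.753 CPM per kilobase in CTRL. These 4 were separated from each other in CTRL and at 24H, whereas at 48H BMF, at 39.6 ± 2.56, overlapped BCL2L11, at 38.5 ± 2.29. BIK at 0.468 ± 0.191, BCL2 at 0.185 ± 0.0231 and BCL2A1 at 0.106 ± 0.0340 CPM per kilobase closed the order in CTRL. BCL2, the founding member of the family, was therefore among the least expressed in these cells, and BCL2 and BCL2A1 overlapped at both time-points.

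Of the summed per-kilobase level of the 10 members, MCL1 took 35.7% ± 0.784 in CTRL, 34.9% ± 0.421 at 24H and 37.1% ± 0.460 at 48H (SD, n = 3). The order rests partly on the lengths. With the longest transcript in place of the median, MCL1 and BCL2L1 remained first and second and BIK, BCL2 and BCL2A1 last, the order of the other 5 changed, and the MCL1 share in CTRL was 52.6%.

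**Figure D1:**
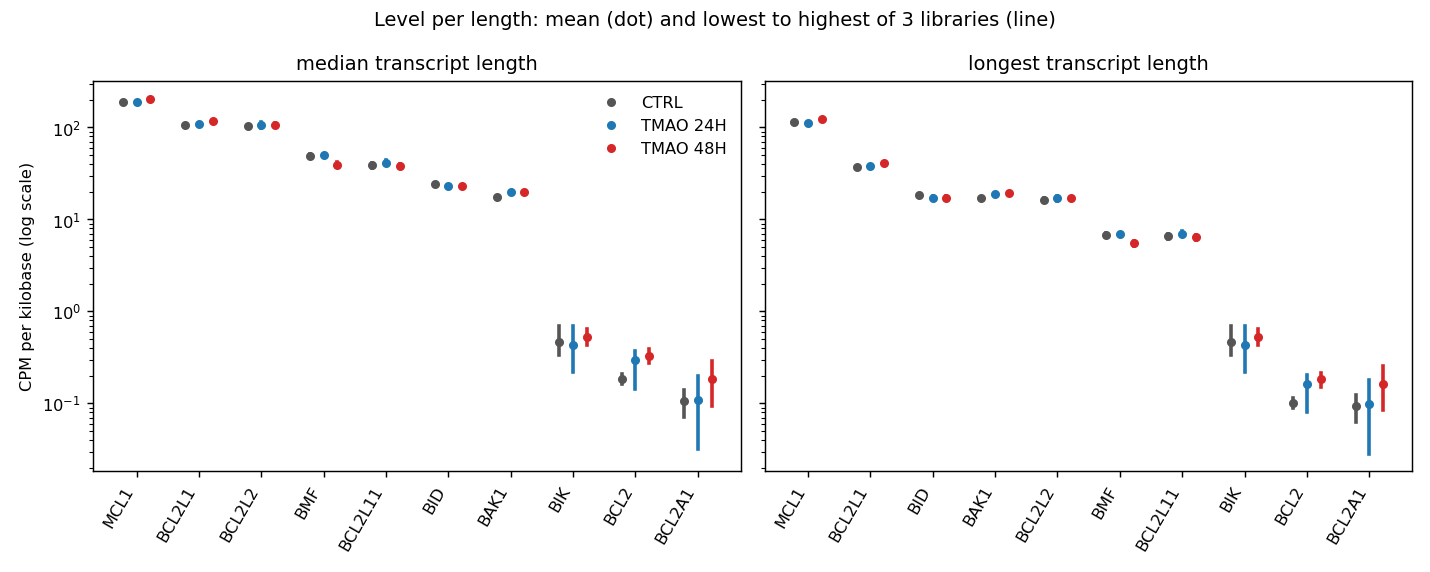
Level of each member in CPM per kilobase on a log axis, ordered by the CTRL level, with the median transcript length on the left and the longest on the right (dots are group means, lines run from the lowest to the highest of 3 libraries). MCL1 leads in both panels and BIK, BCL2 and BCL2A1 lie lowest in both, while BCL2L2, BMF, BCL2L11, BID and BAK1 change places.

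The first comparison asked what 24H of TMAO did to these genes. None of the 9 tested members passed at 24H, while 0.095% of all tested genes did. A gene passed when its p from edgeR's quasi-likelihood test on all 9 libraries, adjusted by the Benjamini-Hochberg procedure, was under 0.05, whatever its fold change. DESeq2 also called 0 members, and the stricter rule that also asks for 1.4-fold left 0.0475% of all genes. At an unadjusted p under 0.05 there were 2 members, BAK1 and BID, against 7.24% of all genes. The 3 treated libraries lay outside the range of the 3 controls for 3 of the 9 members (BCL2L1, BID and BAK1), against 14.2% of all genes. The median log2 fold change was 0.042 over the 4 tested anti-apoptotic members and 0.019 over the 5 pro-apoptotic members, with -0.00042 over all genes.

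At 48H, 3 of the 9 tested members passed against CTRL (BMF lower, BCL2L1 and BAK1 higher), where 10.4% of all tested genes passed (5.14% higher and 5.29% lower). DESeq2 also called 3, with MCL1 in place of BAK1. None of the 3 reached the 1.4-fold change that the study's methods set as a second threshold, which 1.8% of all genes did. The 3 libraries at 48H lay outside the range of the controls for 6 of the 9 members, against 27.8% of all genes, and 5 members had an unadjusted p under 0.05, against 25.8%. By direction, the 4 tested anti-apoptotic members all had fold changes above 0, with a median log2 of 0.12, although only BCL2L1 passed. Of the 5 pro-apoptotic members 2 were above 0 and 3 below, with a median of -0.039, beside 0.0040 over all genes.

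Between 48H and 24H, 1 of the 9 members passed (BMF, lower), where 7.53% of all genes passed and 3.77% were lower. DESeq2 called 2, BMF and MCL1. The 2 groups did not overlap for 3 members (BMF, BCL2L1 and MCL1), against 27.7% of all genes, and the same 3 had an unadjusted p under 0.05, against 22.1%. At 1.4-fold or more, 1.71% of all genes and 0 members passed. The comparisons of 24H and of 48H with CTRL use the same 3 control libraries, so their values are set side by side and not as independent results.

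**Figure D2:**
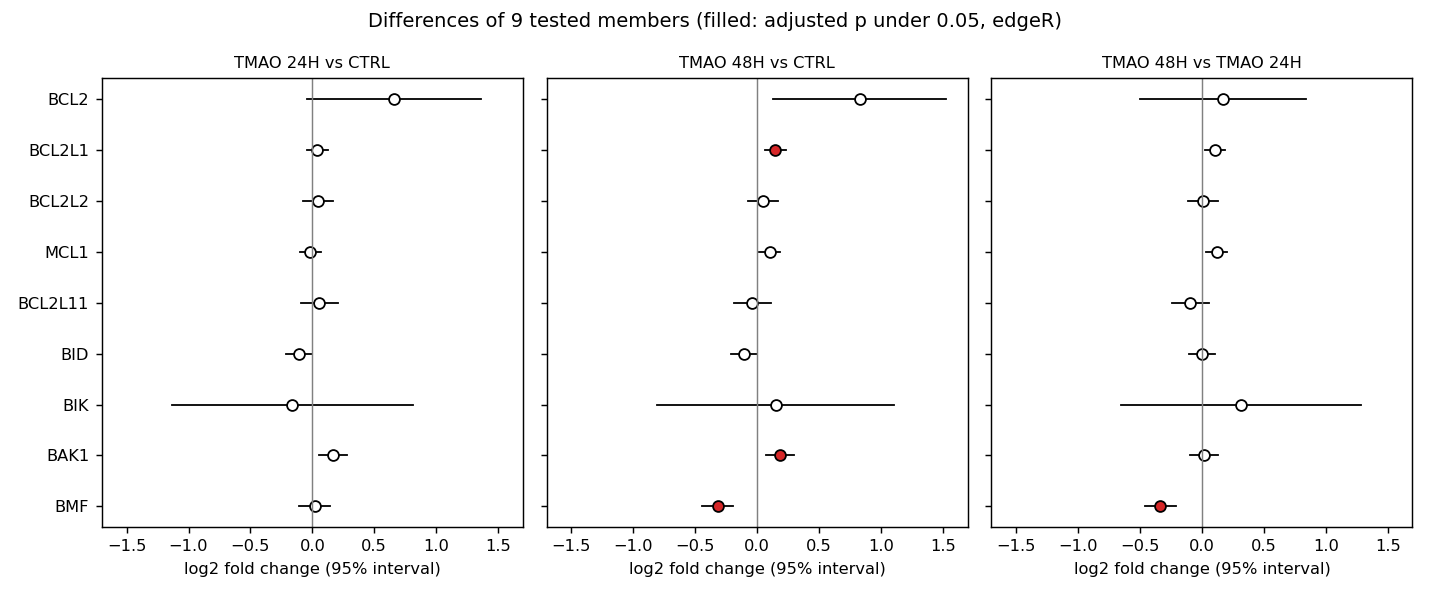
Log2 fold change of the 9 tested members in the 3 comparisons, with 95% intervals from the edgeR fit, filled where the adjusted p is under 0.05. BMF lies below 0 at 48H against both CTRL and 24H, BCL2L1 and BAK1 are filled at 48H against CTRL, and the intervals of BCL2 and BIK, the members with few reads, are the widest.

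BMF fell at 48H. Its level was 31.6, 33.5 and 31.1 CPM in the 3 control libraries, 32.8, 32.8 and 31.8 CPM at 24H and 25.3, 24.4 and 27.6 CPM at 48H. All 3 libraries at 48H lay below the other 6, while CTRL and 24H overlapped. Mean levels were 32.1 ± 1.27, 32.5 ± 0.557 and 25.7 ± 1.66 CPM (SD, n = 3). The log2 fold change against CTRL was -0.32 (standard error 0.0584, 95% interval -0.44 to -0.19, edgeR adjusted p = 0.00451), a level 0.802 times that of CTRL. Against 24H it was -0.34 (standard error 0.0584, edgeR adjusted p = 0.00297), and at 24H against CTRL it was 0.019 (interval -0.11 to 0.14). The fall passed in each of the 9 fits that left out 1 library, with adjusted p from 0.00246 to 0.0284 at 48H against CTRL. Without TMAO 48H replicate 3, the library with few epithelial transcripts, the log2 fold change was -0.37. BMF was the one member whose call survived every alternative setting, at both 48H comparisons.

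The 5 endothelial markers and COL1A1 that were lower at 48H moved in the same direction as BMF. VWF did not: between 24H and 48H, where BMF fell, it rose by 0.51 on the log2 scale (edgeR adjusted p = 0.00112), and 3 of the 10 endothelial markers were above 0 at 48H against CTRL. The part of these markers in the fall of BMF was not tested. In bulk RNA, fewer cells of a type and less RNA per cell cannot be told apart.

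BID, the link from death receptors to mitochondria, was slightly below CTRL at both time-points without passing. Its level was 45.8, 46.6 and 46.2 CPM in CTRL, 43.3, 40.8 and 44.7 CPM at 24H and 44.5, 41.8 and 42.6 CPM at 48H. No treated library reached the lowest control, and the 2 time-points overlapped each other. The log2 difference was -0.11 at 24H (interval -0.21 to -0.0012, edgeR adjusted p = 0.683) and -0.10 at 48H (interval -0.21 to 0.0011, edgeR adjusted p = 0.199).

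BCL2L11, the BH3-only protein known to bind every guardian, overlapped between all groups. Mean levels were 34.9 ± 2.29 CPM in CTRL, 36.2 ± 2.74 at 24H and 34.0 ± 2.02 at 48H (SD, n = 3). The log2 fold change was 0.054 at 24H (interval -0.095 to 0.20) and -0.039 at 48H (interval -0.19 to 0.11). BIK, a BH3-only protein of the endoplasmic reticulum, had 7 to 20 counts per library, and its interval at 48H ran from -0.81 to 1.11 on the log2 scale, so a difference was not detectable at this depth.

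BAK1, the single effector among the 10, had higher levels in the treated libraries at both time-points but passed only at 48H. Its level was 35.6, 38.6 and 38.1 CPM in CTRL, 43.4, 42.0 and 40.4 CPM at 24H and 44.0, 40.7 and 42.8 CPM at 48H. Every treated library exceeded every control library, and the 2 time-points overlapped. Mean levels were 37.4 ± 1.61, 41.9 ± 1.51 and 42.5 ± 1.72 CPM (SD, n = 3). The log2 fold change was 0.18 at 48H (standard error 0.0526, interval 0.070 to 0.30, edgeR adjusted p = 0.0427) and 0.16 at 24H (standard error 0.0526, unadjusted p = 0.00789, edgeR adjusted p = 0.515). Between 48H and 24H it was 0.019 (interval -0.094 to 0.13). The estimates against CTRL at the 2 time-points therefore lay within 1 standard error of each other. The call at 48H was marginal: leaving out any 1 of the 9 libraries ended it, with adjusted p from 0.0545 (without TMAO 24H replicate 3) to 0.144 (without CTRL replicate 1). It was 0.0638 without TMAO 24H replicate 1 and 0.0767 without TMAO 48H replicate 3, and DESeq2 gave adjusted p = 0.0830.

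**Figure D3:**
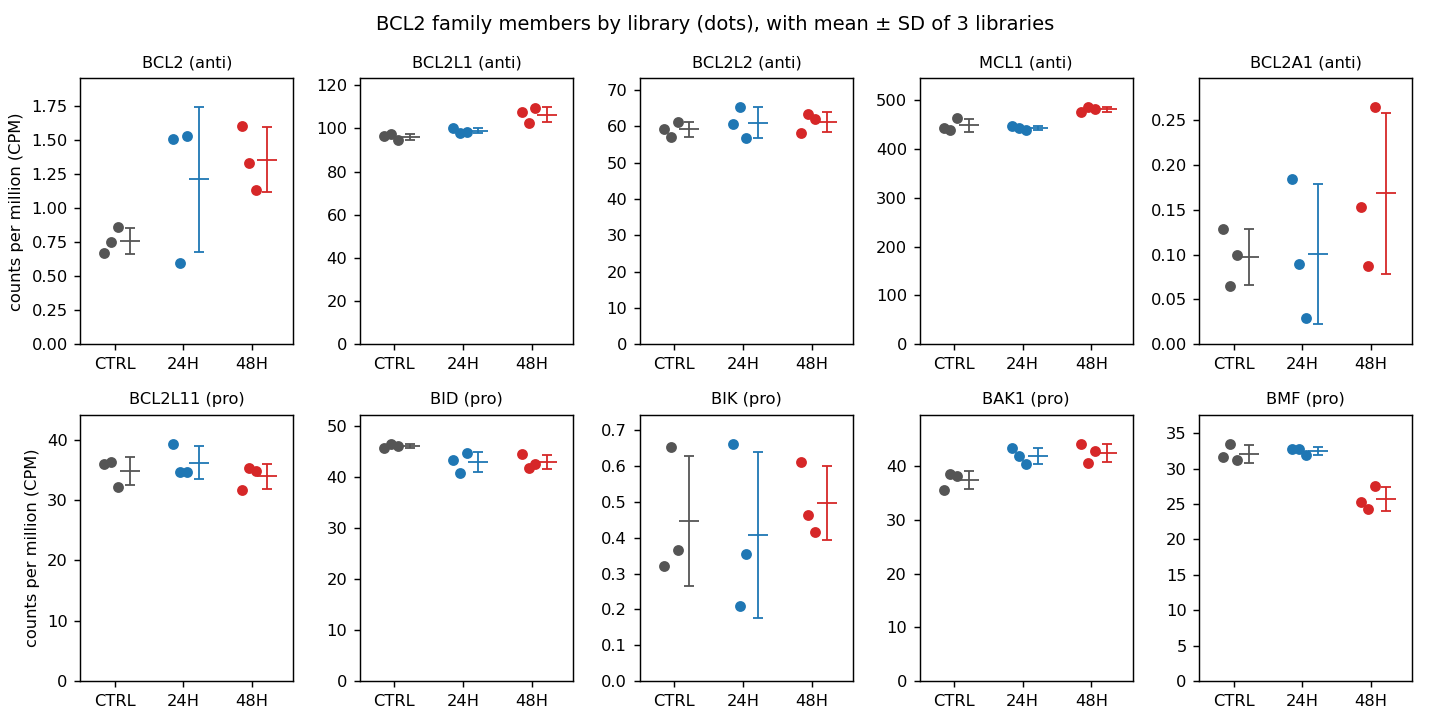
Level of each of the 10 members in CPM, with 1 dot per library and the mean ± SD of 3 libraries beside them (vertical axes start at 0 and differ between panels, 24H and 48H are hours of TMAO). The 3 BMF dots at 48H lie below all others, the BAK1 dots of both treated groups lie above the controls, and BCL2, BCL2A1 and BIK scatter widely at levels under 2 CPM.

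BCL2L1, which encodes BCL-XL, was higher at 48H. Its level was 96.4, 97.2 and 94.7 CPM in CTRL, 100.2, 98.1 and 98.3 CPM at 24H and 107, 102 and 109 CPM at 48H. The 3 groups did not overlap, so every 24H library stood between CTRL and 48H. Means were 96.1 ± 1.30, 98.9 ± 1.17 and 106 ± 3.56 CPM (SD, n = 3). The log2 fold change at 48H was 0.15 (standard error 0.0387, interval 0.063 to 0.23, edgeR adjusted p = 0.0295), a level 1.11 times that of CTRL. At 24H it was 0.041 (interval -0.042 to 0.12, edgeR adjusted p = 0.900), and between 48H and 24H it was 0.11 (edgeR adjusted p = 0.124). The call at 48H was lost in 7 of the 9 fits that left out 1 library. The adjusted p was 0.0711 to 0.0757 without any 1 of the controls, 0.0574 and 0.0507 without TMAO 24H replicates 1 and 2, and 0.0556 and 0.0780 without TMAO 48H replicates 1 and 3. The log2 fold change stayed between 0.13 and 0.17 in these fits.

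MCL1 stood higher at 48H than in the other groups without passing. Its level was 444, 439 and 463 CPM in CTRL, 448, 443 and 440 CPM at 24H and 476, 486 and 483 CPM at 48H. The 3 libraries at 48H exceeded the other 6, and CTRL and 24H overlapped. The log2 difference at 48H was 0.10 against CTRL (standard error 0.0389, interval 0.019 to 0.19, edgeR adjusted p = 0.112) and 0.12 against 24H (edgeR adjusted p = 0.0889), while DESeq2 gave adjusted p = 0.0444 and 0.0211. At 24H it was -0.015 (interval -0.099 to 0.069). In the 9 fits that left out 1 library, the difference from CTRL at 48H ranged from 0.087 to 0.12 and passed in 0 of them by edgeR.

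BCL2L2, which encodes BCL-W, overlapped between all groups, at 59.2 ± 2.12, 61.0 ± 4.25 and 61.3 ± 2.73 CPM in CTRL, at 24H and at 48H (SD, n = 3). It shares exons with the readthrough gene BCL2L2-PABPN1, which was listed at 44.9 to 49.8 CPM in CTRL, 42.6 to 43.0 at 24H and 40.5 to 55.2 at 48H, so the split of reads between the 2 genes is uncertain.

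BCL2 itself had 21, 23 and 26 counts in CTRL, 41, 20 and 52 at 24H and 42, 46 and 30 at 48H. The 3 libraries at 48H exceeded the 3 controls, whereas 1 library at 24H lay below them. The log2 difference at 48H was 0.83 (standard error 0.324, interval 0.13 to 1.53, edgeR adjusted p = 0.122) and at 24H it was 0.66 (interval -0.040 to 1.36, edgeR adjusted p = 0.713). Without TMAO 24H replicate 2, the library with 20 counts, the difference of 0.83 at 48H passed (edgeR adjusted p = 0.0473). That library is not among the groups compared there. The difference stayed at 0.83, while the standard error, from a spread shared by all groups, went from 0.324 to 0.231. BCL2 passed in 1 of the 9 fits that left out 1 library. BCL2A1, a guardian induced by NF-kB in many cells, had 1 to 7 counts per library and 9, 9 and 14 counts summed over CTRL, 24H and 48H. Without the filter on low counts its log2 difference at 48H was 0.70 (standard error 0.728, edgeR adjusted p = 0.680), so a change was not detectable at this depth.

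Summed per kilobase, the anti-apoptotic members came to 398 ± 7.56 CPM in CTRL, 403 ± 8.38 at 24H and 427 ± 5.92 at 48H, and the pro-apoptotic members to 131 ± 4.55, 134 ± 4.55 and 121 ± 3.27 (SD, n = 3). The ratio of the 2 sums was 2.88 to 3.20 in CTRL and 2.92 to 3.12 at 24H. At 48H its mean was 3.52 ± 0.0686 (SD, n = 3) and its lowest value 3.46. It was higher in all 3 libraries at 48H than in the other 6. With the longest transcripts the ranges were 3.24 to 3.50, 3.25 to 3.43 and 3.59 to 3.80, so the ratio at 48H stayed apart with either length while its size changed. The lower pro-apoptotic sum at 48H did depend on the lengths: with the longest transcripts it was 48.4 to 50.9 in CTRL, 49.2 to 52.2 at 24H and 47.6 to 49.8 at 48H, and the groups overlapped. The ratio of BCL2L1 to BMF alone was 2.06 to 2.17 in CTRL, 2.13 to 2.20 at 24H and 2.82 to 3.03 at 48H. The ratio of BAK1 to BMF, both pro-apoptotic, was also higher at 48H. It was 0.343 to 0.373 in CTRL, 0.386 to 0.403 at 24H and 0.472 to 0.531 at 48H. Both ratios share BMF, which was lower at 48H. These ratios are descriptions of the values above, carry no test, and concern RNA levels. The sums leave out relatives that were also expressed, among them BAX, at 72.3 CPM in CTRL and 78.3 at 48H. In the same groups BOK was at 77.6 and 78.1, PMAIP1 at 43.4 and 44.1, BAD at 33.8 and 34.3 and BBC3 at 14.3 and 15.3. Of the 9 tested relatives outside the sums, 7 had log2 differences above 0 at 48H against CTRL and 2 below. The ratio of the sums is therefore not that of the whole family.

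The genes whose levels followed the 3 members most closely over the 9 libraries were found among 12328 genes by Pearson's r, given as a description because the libraries share treatment and depth. For BMF these were AQP1 (r = 0.994), GAPDH (0.987) and SH3BGRL3 (0.984). AQP1, the water channel of microvascular endothelium, was at 15.4, 18.1 and 15.2 CPM in CTRL, 17.2, 16.2 and 15.9 at 24H and 10.3, 9.06 and 11.6 at 48H. GAPDH, the glycolytic enzyme that served the study as its RT-qPCR reference, was at 2175 to 2311 CPM in CTRL, 2250.1 to 2283 at 24H and 1974 to 2061 at 48H. For BCL2L1 they were TINF2, a subunit of the telomere-capping shelterin complex (r = 0.972), the surface glycoprotein gene THY1 (0.969) and the ubiquitin ligase gene TRIM32 (0.960). For BAK1 they were TBCK (0.964), the cytokine signalling suppressor gene SOCS2 (0.927) and DHX35 (0.914). TINF2 was at 43.4 to 45.4 CPM in CTRL, 45.4 to 46.4 at 24H and 46.3 to 50.1 at 48H, so it overlapped between 24H and 48H where BCL2L1 did not.

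The rest of the pathway was read from 6 further lists of 52 genes, of which 47 were tested. At 24H, 0 of the 47 passed by edgeR and 0 by DESeq2, with 3 at an unadjusted p under 0.05 (7.24% of all genes were). At 48H, 5 passed (4 higher and 1 lower), or 10.6% against the 10.4% of all genes, and DESeq2 called 5. The share in these lists was therefore near that of all genes. Their median log2 fold change at 48H was 0.022.

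Among 9 tested genes of 13 other BCL2 relatives, BCL2L13, a mitochondrial membrane protein and mitophagy receptor, was higher at 48H, at 74.1 ± 0.831 CPM in CTRL and 83.5 ± 3.07 CPM at 48H (SD, n = 3), with a log2 fold change of 0.17 (edgeR adjusted p = 0.0225). That call was lost without CTRL replicate 1 (0.0728) or 2 (0.0747) and without TMAO 48H replicate 1 (0.0597) or 2 (0.0598), and also with only the 2 groups compared (0.0643) and with the GC and length correction (0.0501). The p53 targets in this list did not pass at 48H against CTRL: BAX gave 0.12 (edgeR adjusted p = 0.285), BBC3 (PUMA) 0.10 (0.607) and PMAIP1 (NOXA), the sensor that binds MCL1, 0.025 (0.866). At 48H against 24H, BAX, BBC3 and PMAIP1 had log2 differences of 0.16, 0.33 and 0.071 (edgeR adjusted p = 0.169, 0.0875 and 0.618). Between 48H and 24H, BNIP3L, another mitophagy receptor, fell by 0.14 on the log2 scale (edgeR adjusted p = 0.0411), and passed in 2 of the 9 fits that left out a library, those without CTRL replicate 3 (0.0310) and without TMAO 48H replicate 1 (0.0271). The adjusted p was 0.151 without TMAO 24H replicate 1 and 0.0838 without TMAO 48H replicate 3. At 24H the smallest p-values of this list were those of BCL2L13 (log2 fold change 0.13, edgeR adjusted p = 0.520) and BBC3 (-0.23, adjusted p = 0.701).

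Of the 8 genes for the mitochondrial channel and the proteins released through the membrane, VDAC1, the main channel for metabolites, was lower at 48H, at 157 ± 7.74 CPM in CTRL and 141 ± 3.98 CPM at 48H (log2 fold change -0.15, edgeR adjusted p = 0.0401), a call that held in 1 of 9 fits leaving out a library, the one without CTRL replicate 3 (0.00791), with adjusted p from 0.0573 (without TMAO 24H replicate 1) to 0.144 in the other 8 and 0.0686 without TMAO 48H replicate 3. It was also lost without the filter on low counts (0.0622), with only the 2 groups compared (0.0837) and with the GC and length correction (0.0788). CYCS, which encodes cytochrome c, and AIFM1 had the smallest p-values of this list at 24H, with adjusted p = 0.913 and 0.823 by edgeR. At 48H against CTRL, CYCS had a log2 difference of 0.17 without passing (edgeR adjusted p = 0.0912), and the other 7 genes were below 0. Of the 8 apoptosome and caspase genes, 0 passed at 48H by edgeR or DESeq2 and 0 had an unadjusted p under 0.05. The smallest p-values were those of the initiator caspase gene CASP9 (log2 difference 0.23, edgeR adjusted p = 0.199) and its platform APAF1 (0.086, adjusted p = 0.204).

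Among the 5 tested inhibitors of apoptosis, XIAP, which blocks caspases directly, was higher at 48H, at 57.5 ± 4.64 CPM in CTRL and 67.8 ± 0.679 CPM at 48H (log2 fold change 0.24, edgeR adjusted p = 0.0236). The XIAP call was lost without CTRL replicate 1 (0.0722), CTRL replicate 2 (0.104) or TMAO 48H replicate 2 (0.0774), and under the GC and length correction (log2 fold change 0.16, adjusted p = 0.0974). BIRC2 did not pass, with a log2 difference of 0.15 (edgeR adjusted p = 0.0501). BIRC6 had the smallest p-value of this list at 24H, with a log2 difference of 0.20 (edgeR adjusted p = 0.493).

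In the death receptor arm that leads to BID, 2 of 8 genes were higher at 48H, where 5.14% of all genes were. By direction alone, 4 of the 8 were above 0 and 4 below. Those that did not pass included TNFRSF10A, with a log2 difference of 0.32 (edgeR adjusted p = 0.0545), and CFLAR, with -0.16 (0.0784). The receptor gene FAS was at 6.03 ± 0.804 CPM in CTRL, 6.24 ± 0.389 at 24H and 8.58 ± 0.881 at 48H (SD, n = 3), with a log2 fold change of 0.51 (edgeR adjusted p = 0.0162). It was the one gene of the 47 that passed and also exceeded 1.4-fold, at 1.42-fold. TNFRSF10B, a receptor for TRAIL, was at 169 ± 6.76 CPM in CTRL and 193 ± 8.04 CPM at 48H (log2 fold change 0.19, edgeR adjusted p = 0.0180). The TNFRSF10B call was lost without CTRL replicate 1 (0.0566), CTRL replicate 3 (0.0509) or TMAO 48H replicate 2 (0.0886). FAS also rose between 24H and 48H (log2 fold change 0.46, edgeR adjusted p = 0.0319), a call lost without any 1 of the TMAO 24H libraries (0.0604, 0.0777 and 0.128) and without TMAO 48H replicate 1 (0.0951) or 2 (0.0785). Both are known p53 targets, and the FAS call at 48H was lost without CTRL replicate 1 (adjusted p = 0.0670), CTRL replicate 2 (0.0739) or TMAO 48H replicate 1 (0.0506). FADD and TRADD, adaptors of death receptors, had the smallest p-values at 24H, with edgeR adjusted p = 0.678 and 0.850.

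Of 9 genes for the turnover, sequestration and transcription of the members, 0 passed at 48H by edgeR or DESeq2, and 2 had an unadjusted p under 0.05, a share no larger than the 25.8% of all genes. These were DYNLL2, the light chain that holds BMF (log2 difference 0.13, edgeR adjusted p = 0.116), and USP9X, which removes ubiquitin from MCL1 (0.11, adjusted p = 0.158). HUWE1, a ubiquitin ligase for MCL1, gave 0.043, and FOXO3, a known activator of BCL2L11 transcription, 0.077.

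**Figure D4:**
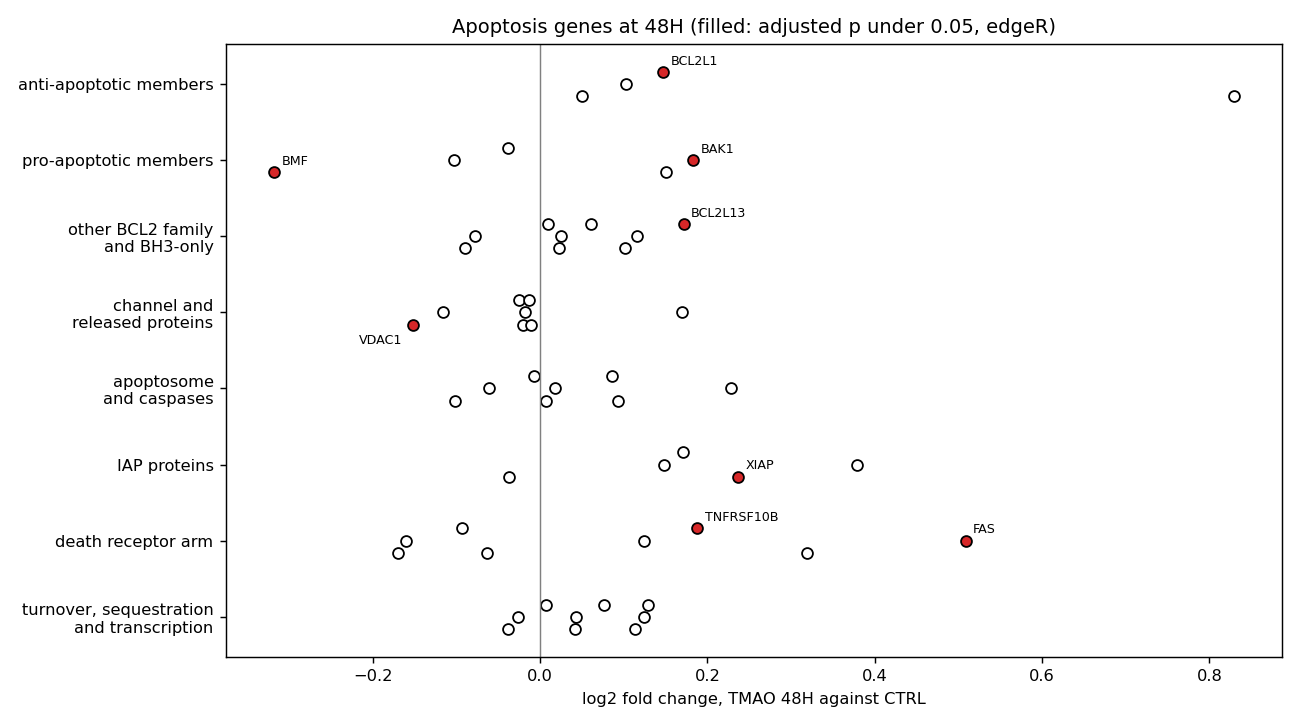
Log2 fold change at 48H against CTRL of each tested gene in the 2 member lists and the 6 further lists, filled and named where the edgeR adjusted p is under 0.05. Of the 9 members 3 are filled and of the other 47 genes 5 are, with BMF the lowest and FAS the highest of the filled points, and the highest open point is BCL2.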

How the data were processed

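RNA from 9 HMEC-1 libraries was sequenced on an Illumina NovaSeq, and per the authors the reads were processed with the nf-core RNAseq pipeline. The submitters' processing notes also name Trim Galore. The authors deposited estimated counts (expected counts) per gene symbol, not normalised. The quantifier, genome build and annotation are not given in the sources used here.

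Counts were rounded, filtered with filterByExpr, scaled by TMM and fitted together (3 groups, no block) with the quasi-likelihood test of edgeR 4.0.16 (legacy = FALSE) in R 4.3.3. P-values were Benjamini-Hochberg adjusted over 14740 genes. An exact permutation test of 3 against 3 cannot go below p = 0.1. DESeq2 1.42.0, RLE factors, other filters, the older fit, only the 2 groups compared, a replicate block, removal of ribosomal RNA genes and leaving out each library were alternatives. A GC and length correction, the sum of BCL2L2 with its readthrough gene, and the alternatives of other pathway genes were added after seeing the data. The method was tested on simulated data with changes of 1.4-fold or more in either direction. These exceed the change of any member that passed, so the simulation does not cover differences of that size.

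The members and lists were chosen with earlier results of these data known. All members are named. Of each further list, up to 4 genes that passed, or else the 2 with the smallest p, were named, and others were named after their values were seen.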

Additional observations from a re-analysis of the deposited data

Results flagged for a closer look

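A tested difference between the 2 time-points brought 3 genes here. BMF was lower at 48H than at 24H by a log2 difference of -0.34 (edgeR adjusted p = 0.00297), with all 3 libraries at 48H below all 3 at 24H. BNIP3L was lower by -0.14 (edgeR adjusted p = 0.0411), and this call was kept in 2 of the 9 fits that left out 1 library. FAS was higher by 0.46 (edgeR adjusted p = 0.0319), kept in 4 of those 9 fits. The comparison contrasts the treated groups directly and does not use the controls as a reference. These groups also differ in time in culture, so an effect of longer TMAO cannot be told apart from one of culture time.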

How the results depend on the processing

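BMF kept its direction and its side of the threshold in every alternative run at 48H against CTRL and against 24H. BCL2L1 at 48H lost its call without the filter on low counts (adjusted p = 0.0545) and with only the 2 groups compared (0.0953). BAK1 lost its call without the filter (0.0607), with DESeq2 (0.0830), with only the 2 groups compared (0.0953) and without ribosomal RNA genes (0.0532). MCL1 gained a call with DESeq2 in both 48H comparisons, BCL2L1 gained one at 48H against 24H with the GC and length correction (adjusted p = 0.0178), and the causes were not tested. Over all members, alternatives and comparisons, 433 fold changes kept direction and side of the threshold, 24 lost a call, 4 gained one and 25 changed sign.

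Of all genes, 14 passed at 24H, against 47 with DESeq2, 22 with only the 2 groups compared and 0 to 24 without 1 library. At 48H 1537 passed, against 981 with only the 2 groups compared and 700 to 1595 without 1 library, and between 48H and 24H 1110 passed, against 558 to 1281 without 1 library. The 3 members that passed at 48H became 1 without the filter or with only the 2 groups compared, and 1 to 2 without 1 library. The 1 member at 48H against 24H became 2 with DESeq2 and 2 with the GC and length correction. The MCL1 share in CTRL was 52.6% with the longest transcripts in place of 35.7%.

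The labels do not say whether equal replicate numbers pair the samples. Correlations of deviations from the group means were -0.12 to 0.091 for 9 pairs with the same number and -0.10 to 0.16 for 18 pairs with different numbers. With 3 libraries per group, these values cannot decide whether the samples were paired. With the replicate block, 1 gene passed at 24H, 948 at 48H and 731 between 48H and 24H, and 1 member (BMF) at 48H, since BCL2L1 (adjusted p = 0.0725) and BAK1 (0.0943) did not. Of the other pathway genes, the block ended the calls of VDAC1 at 48H (0.0849) and of BNIP3L (0.0826) and FAS (0.0755) between 48H and 24H, and BNIP3L was also lost without the filter (0.0655).

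Sign changes concerned differences that did not pass. At 24H, the log2 fold change of BCL2L2 was -0.032 when summed with its readthrough gene and -0.0098 to 0.091 without 1 library, and without 1 library MCL1 ranged from -0.030 to 0.011, BCL2L11 from -0.0089 to 0.086 and BIK from -0.66 to 0.22. At 48H without 1 library, BCL2L11 ranged from -0.097 to 0.0099 and BIK from -0.041 to 0.53. Between 48H and 24H, BCL2L2 was -0.0010 with only the 2 groups compared, and BID was -0.0035 with RLE factors, -0.0041 with DESeq2, -0.0059 with only the 2 groups compared and -0.0068 without ribosomal RNA genes. Without 1 library in that comparison, BCL2 ranged from -0.16 to 0.39, BCL2L2 from -0.040 to 0.060, BID from -0.033 to 0.032, BIK from -0.0094 to 0.80 and BAK1 from -0.0074 to 0.050. Depth limits BCL2, BIK and BCL2A1, and 3 libraries per group limit the rest.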
